A study of Mus musculus with 11 samples.

Results

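The genes described here are 10 members of the tumour necrosis factor (TNF) superfamily, taken by gene symbol from a table of 34745 genes. They are 4 ligands (Tnf, Tnfsf9, Tnfsf10 and Tnfsf12) and 6 receptors (Tnfrsf1a, Tnfrsf1b, Tnfrsf11a, Tnfrsf14, Cd40 and Fas). Each symbol matched 1 row, and all 10 passed the filter on low values that left 10938 genes to test. RNA sequencing was run on microglia, the macrophages that live in the brain, grown in culture from the cerebrum of C57BL/6 mice that were 6 to 8 weeks old. All cells, controls included, were kept for 10 to 14 days in medium that held 5 ng/ml TGF-beta1 and 10 ng/ml M-CSF. The study asked how activation of Toll-like receptor 2 (TLR2) alters the transcriptome of microglia exposed to interferon-gamma (IFN-gamma).

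The 11 libraries fell into 4 groups. The combined group (Pam3CSK4+IFN-gamma, n = 3) received Pam3CSK4, a synthetic lipopeptide that activates TLR2, at 100 ng/ml for 24 h and then 20 ng/ml of IFN-gamma for another 24 h. The Pam3CSK4 group (n = 2) received only the lipopeptide, the IFN-gamma group (n = 3) only the cytokine, and the Control group (n = 3) neither. The labels do not say whether the lipopeptide was removed before IFN-gamma was added, nor when the Pam3CSK4 and Control cells were harvested relative to the others. In one label field, replicates 2 and 3 of the combined group carry another last digit in the lipopeptide's name, and they were treated as replicates of the first. Nothing in the labels says that replicates came from separate animals or cultures, so p-values measure only the spread between these libraries.

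TNF superfamily ligands are membrane-bound or shed trimers that cluster their receptors on the same or a neighbouring cell. Receptors with a death domain, such as those encoded by Tnfrsf1a and Fas, can lead to caspase activation or to NF-kappaB signalling, whereas others, such as those encoded by Cd40 and Tnfrsf1b, recruit TRAF adaptor proteins directly. In the brain, microglia are a main source of TNF, and CD40 is a known marker of their activation.

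Library totals ran from 15033702 to 20321017 counts, and between 15730 and 18185 genes had a count. Of 10 listed microglial markers, Itgam did not match 1 row and was left out. The other 9, among them Cx3cr1, P2ry12 and Tmem119, were at 1 FPKM or more in every library. FPKM (reads scaled to gene length and to library total) was the deposited level used here. P2ry12 was near that limit in 2 groups, at 1.85 to 2.14 FPKM in the combined group and 1.32 to 1.70 in the Pam3CSK4 group. It was at 14.4 to 18.0 in the IFN-gamma group and 12.6 to 37.3 in the Control group. The summed FPKM of the 9 markers was 4780 to 5037 in the combined group, 5295 to 5582 in the Pam3CSK4 group, 8593 to 9228 in the IFN-gamma group and 6837 to 10015 in the Control group. In all, 3 libraries stood apart through 10 markers of mural cells and fibroblasts. Their summed level was 55.7 FPKM in combined replicate 3, 122 in IFN-gamma replicate 1 and 2261 in Control replicate 3, and at most 3.86 in each other library. Acta2, a smooth-muscle actin, was at 10.5, 44.1 and 865 FPKM in those libraries and at most 1.41 elsewhere. In those libraries 5, 8 and 8 of the 10 markers were at 1 FPKM or more, and at most 1 elsewhere. Rgs5 and Lum stayed below 1 FPKM in every library. Dcn reached 16.4 FPKM in the combined group but at most 1.05 in the Control group. Summed astrocyte markers were at 31.2 FPKM in Control replicate 3 and at most 3.61 elsewhere. Neuronal ones were at 3.57, 10.8 and 6.99 FPKM in the 3 libraries and at most 0.481 elsewhere. Each sum came almost only from 1 gene. Gja1 reached 30.8 FPKM in the Control group, and no other astrocyte marker exceeded 0.594 in any library. Tubb3 reached 3.48, 10.7 and 6.88 FPKM in the combined, IFN-gamma and Control groups, and no other neuronal marker exceeded 0.0646. Fewer cells of a type and less RNA per cell cannot be told apart in such bulk samples. The libraries with high mural and fibroblast markers are called the 3 stromal-marked libraries below. Member calls that changed without them are given both ways.

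In all 3 comparisons with Control, most members were higher in the treated cells. A gene was called changed where the adjusted p of edgeR's quasi-likelihood test, corrected over the 10938 genes by the Benjamini-Hochberg method, was below 0.05. Against Control, the combined group had 8 members higher and 1 lower, where 47.6% of all tested genes were called in either direction, 23.4% higher and 24.2% lower. The Pam3CSK4 group had 6 members higher and 2 lower, where 41.4% of genes were called, 20% higher and 21.4% lower. The IFN-gamma group had 6 higher and 1 lower, where 41.6% of genes were called, 20% higher and 21.6% lower. The members' median log2 change was 2.17, 1.67 and 1.40 in these 3 comparisons, beside -0.04, -0.04 and -0.07 over all tested genes. The comparisons share the Control libraries. Without the 3 stromal-marked libraries, 9, 8 and 8 members were called.

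**Figure D1:**
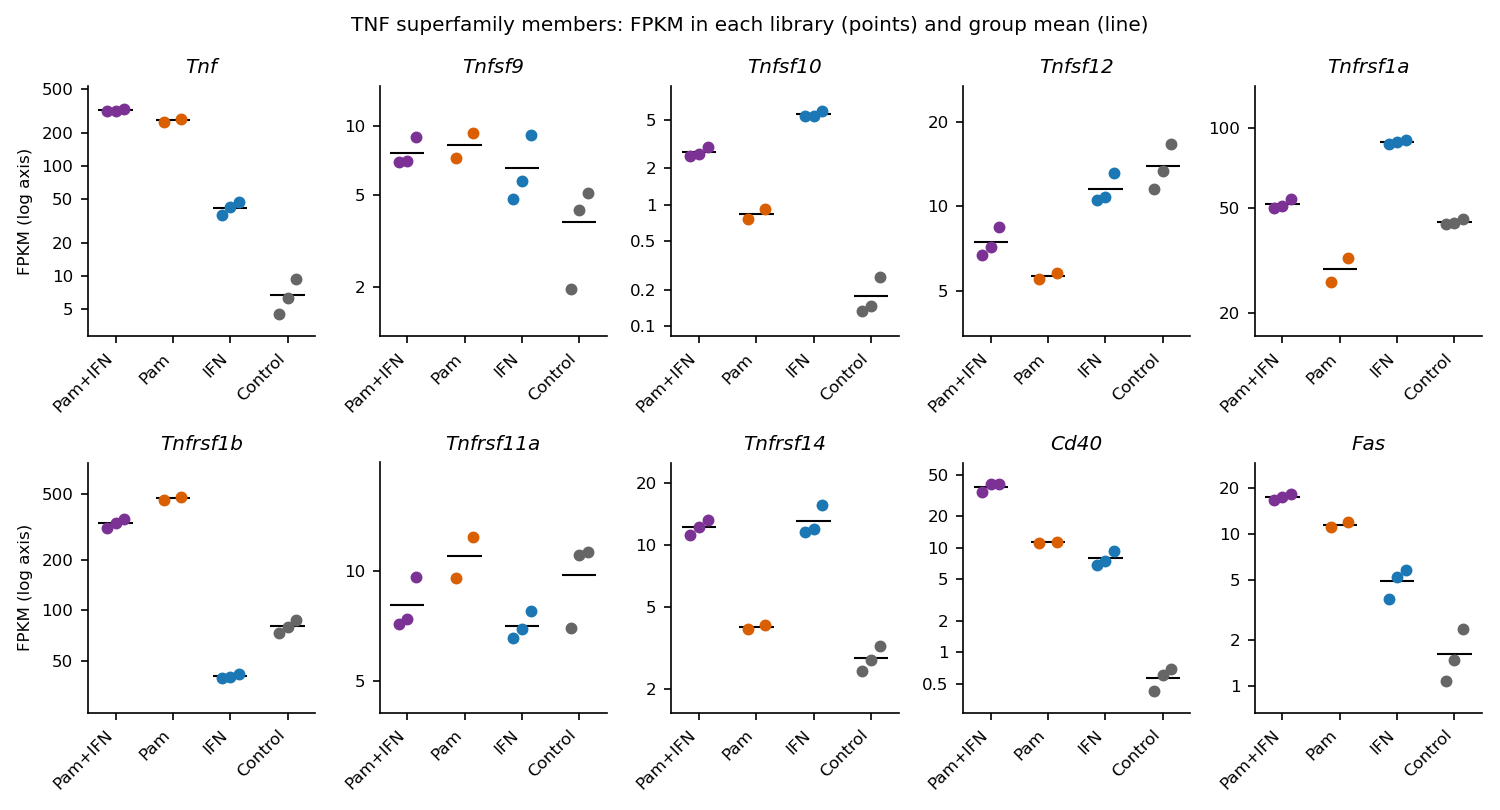
FPKM (log axis) of each of the 10 members, with libraries as points, sorted by level within a group, and the group mean as a line; groups run from combined (Pam+IFN) through Pam3CSK4 (Pam) and IFN-gamma (IFN) to Control. Tnf lay at 311 to 330.04 FPKM in the combined libraries and at 4.58 to 9.46 FPKM in the Control libraries, while the groups overlapped for Tnfrsf11a.

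Among the 4 member ligands, Tnf, which encodes the founding cytokine of the superfamily, was the most abundant in treated cells. It lies at chr17:35199381-35202007 on the minus strand (mm10, ENSMUSG00000024401). Tnf was at 311, 313 and 330.04 FPKM in the combined libraries, at 249.6 and 265 in the Pam3CSK4 libraries, at 42.4, 35.9 and 46.7 in the IFN-gamma libraries, and at 9.46, 6.29 and 4.58 in the Control libraries. No group overlapped another. Tnf rose 49.4-fold in the combined group (log2 change 5.63 ± 0.30 (SE), edgeR adjusted p = 8.62e-07) and 37.1-fold in the Pam3CSK4 group (5.21 ± 0.31, edgeR adjusted p = 3.38e-06), both against Control. With IFN-gamma alone the log2 change against Control was 2.70 ± 0.27 (edgeR adjusted p = 5.59e-05). By mean level, Tnf ranked 110 of the 10938 tested genes in the combined group, 145 in the Pam3CSK4 group, 977 in the IFN-gamma group and 4828 in the Control group.

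The 250 bases before the Tnf start (RefSeq, GRCm38.p6, chr17:35202008-35202257, minus strand) are shown because this gene had the highest level of the 4 ligands in treated cells and because the window holds a TATA box, in capitals, at positions -29 to -24 from the start:
Tnf: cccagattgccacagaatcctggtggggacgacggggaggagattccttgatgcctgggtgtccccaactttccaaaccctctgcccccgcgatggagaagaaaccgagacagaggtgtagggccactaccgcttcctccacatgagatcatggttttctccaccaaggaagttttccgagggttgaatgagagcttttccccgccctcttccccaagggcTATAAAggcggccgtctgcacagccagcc
The letters searched on both strands were TATAAA, the gamma-activated site TTCNNNGAA, the interferon-stimulated response element and the kappaB motif. RefSeq promoters were matched for 7 of the 10 members (not Tnfsf9, Tnfsf12 and Cd40), and among them TATAAA was found only in Tnf. Of 32851 mouse promoter windows of this length, 12.37% hold TATAAA. The kappaB motif, which 3.899% of windows hold, was in none of the 7. These matches are descriptions of letters, not of binding.

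Tnfsf10 encodes TRAIL, a ligand that can start apoptosis, and was the one of the 4 member ligands with its highest level under IFN-gamma alone. It was at 2.50, 2.59 and 3.01 FPKM in the combined libraries, at 0.931 and 0.757 in the Pam3CSK4 libraries, at 5.37, 5.92 and 5.37 in the IFN-gamma libraries, and at 0.257, 0.133 and 0.147 in the Control libraries, where 12 to 22 reads were counted. The groups did not overlap. Tnfsf10 rose 33.1-fold with IFN-gamma alone (log2 change 5.05 ± 0.25, edgeR adjusted p = 8.35e-07) and by 4.00 ± 0.25 in the combined group (edgeR adjusted p = 1.92e-06). With Pam3CSK4 alone it rose by 2.22 ± 0.26 (edgeR adjusted p = 0.000140). Between the combined and IFN-gamma groups it fell by 1.05 on the log2 scale (SE 0.21, edgeR adjusted p = 0.00391).

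Tnfsf9 encodes 4-1BBL, a costimulatory ligand for T cells. Its mean was 7.64 ± 1.10 FPKM in the combined group, 8.28 ± 1.46 in the Pam3CSK4 group, 6.55 ± 2.27 in the IFN-gamma group and 3.80 ± 1.65 in the Control group (SD; n = 3, 2, 3 and 3). It rose against Control in the combined group (log2 change 1.12 ± 0.33, edgeR adjusted p = 0.0196) and in the Pam3CSK4 group (1.13 ± 0.36, edgeR adjusted p = 0.0317). With IFN-gamma alone the log2 change was 0.89 ± 0.33 and missed the threshold (edgeR adjusted p = 0.0541). These calls rest on single libraries. The edgeR adjusted p for the combined group was 0.0652 without combined replicate 3. For Pam3CSK4 it was 0.0533 without Control replicate 2 and 0.103 with only the groups compared in the edgeR fit. Leaving out Pam3CSK4 replicate 1 or 2 leaves 1 library in that group, and the log2 change was then 1.31 or 0.92. For IFN-gamma the edgeR adjusted p was 0.0316 without Control replicate 3, and DESeq2 gave an adjusted p of 0.0209. The gene overlaps a long noncoding RNA on the other strand, and the strand setting of the counting is not given in the sources used here, so reads of the pair may be mixed.

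Tnfsf12 encodes TWEAK, a ligand of tissue repair and inflammation, and was the one of the 4 member ligands that fell with Pam3CSK4. It was at 7.16, 8.49 and 6.75 FPKM in the combined libraries, at 5.81 and 5.55 in the Pam3CSK4 libraries, at 10.8, 10.5 and 13.1 in the IFN-gamma libraries, and at 13.4, 16.7 and 11.5 in the Control libraries. The combined and Pam3CSK4 libraries all lay below the other 6. Against Control it fell by 0.81 (log2 scale, SE 0.19, edgeR adjusted p = 0.00669) in the combined group and by 1.31 (SE 0.22, edgeR adjusted p = 0.00141) in the Pam3CSK4 group. With IFN-gamma alone its log2 change was -0.18 ± 0.19 (edgeR adjusted p = 0.480), and the 2 groups overlapped. Against IFN-gamma, the combined group fell by 0.63 (SE 0.19, edgeR adjusted p = 0.0304). That call was lost without IFN-gamma replicate 3, combined replicate 1 or combined replicate 3 (edgeR adjusted p = 0.106, 0.0960 and 0.0987). Tnfsf12 overlaps an antisense gene and a readthrough gene that joins it to Tnfsf13, so its counts are uncertain.

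Among the receptors, the pair that binds TNF moved in opposite directions under each single treatment. Tnfrsf1b encodes TNF receptor 2, which lacks a death domain, and Tnfrsf1a encodes TNF receptor 1, which has one. Tnfrsf1b was at 353, 334 and 312 FPKM in the combined libraries, at 459.8 and 479 in the Pam3CSK4 libraries, at 40.2, 39.1 and 41.8 in the IFN-gamma libraries, and at 88.0, 79.4 and 73.5 in the Control libraries. The combined and Pam3CSK4 libraries were all above the Control libraries and the IFN-gamma libraries all below them. Against Control, Tnfrsf1b rose by 2.14 ± 0.12 on the log2 scale in the combined group (edgeR adjusted p = 1.15e-06) and by 2.53 ± 0.13 in the Pam3CSK4 group (edgeR adjusted p = 1.55e-06). With IFN-gamma alone it fell by 0.90 (SE 0.12, edgeR adjusted p = 0.000308).

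Tnfrsf1a was at 50.8, 49.96 and 54.1 FPKM in the combined libraries, at 26.1 and 32.4 in the Pam3CSK4 libraries, at 86.9, 88.9 and 90.4 in the IFN-gamma libraries, and at 45.2, 43.7 and 43.3 in the Control libraries. Here the Pam3CSK4 libraries were the lowest and the IFN-gamma libraries the highest, with no overlap. Against Control, Tnfrsf1a fell by 0.61 on the log2 scale with Pam3CSK4 (SE 0.12, edgeR adjusted p = 0.00309) and rose by 1.11 ± 0.11 with IFN-gamma (edgeR adjusted p = 4.90e-05). With only the groups compared in the edgeR fit, Tnfrsf1a just missed the threshold for Pam3CSK4 (log2 change -0.59, edgeR adjusted p = 0.05001). In the combined group it rose by 0.32 ± 0.11 (edgeR adjusted p = 0.0323). This last call was lost without the 3 stromal-marked libraries (log2 change 0.23, edgeR adjusted p = 0.120), and without any of 5 single libraries: Control replicates 2 and 3 (edgeR adjusted p = 0.0524 and 0.0548) and combined replicates 1, 2 and 3 (edgeR adjusted p = 0.0643, 0.0711 and 0.0869). With the replicate number as a block its edgeR adjusted p was 0.0553.

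The ratio of the receptor levels, both scaled per length, was 6.47 ± 0.616 in the combined group, 16.2 ± 1.99 in the Pam3CSK4 group, 0.455 ± 0.0129 in the IFN-gamma group and 1.82 ± 0.124 in the Control group (Tnfrsf1b FPKM over Tnfrsf1a FPKM; SD, n = 3, 2, 3 and 3). IFN-gamma alone was the one condition in which Tnfrsf1a was the more abundant of the pair, in 3 of 3 libraries. The ratio was not tested and is a description of these libraries.

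**Figure D2:**
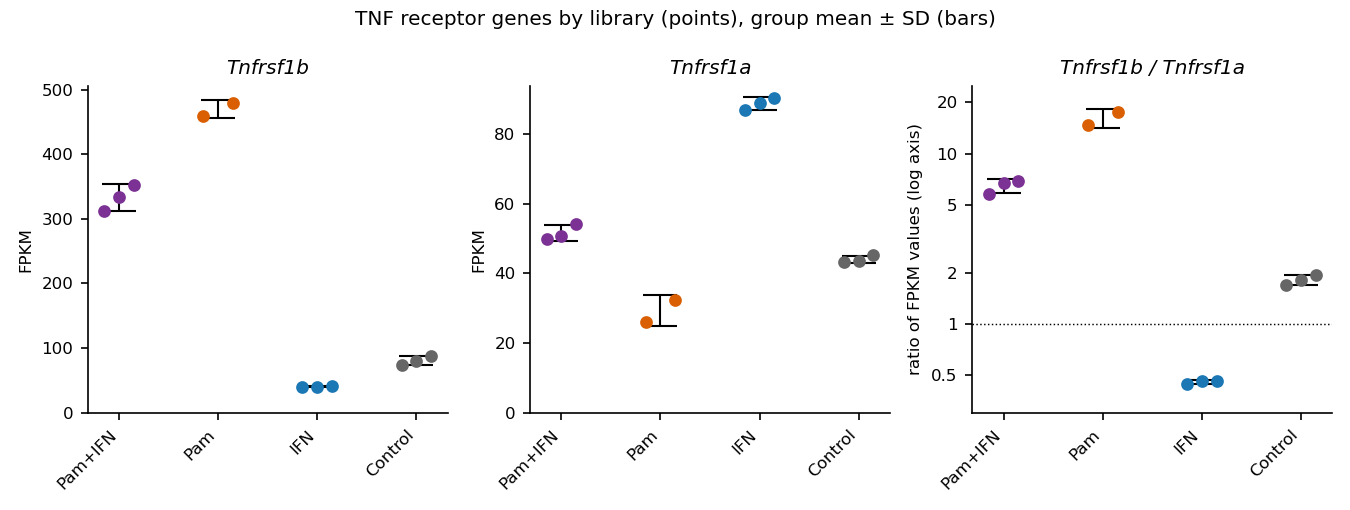
FPKM of Tnfrsf1b (left) and Tnfrsf1a (middle) and their ratio (right, log axis, dotted line at 1) by group, from combined (Pam+IFN) through Pam3CSK4 (Pam) and IFN-gamma (IFN) to Control; points are libraries, sorted by level, and bars are the group mean ± SD. The ratio is 5.77 to 6.95 in the combined libraries, 14.8 to 17.6 in the Pam3CSK4 libraries and 0.440 to 0.462 in the IFN-gamma libraries, against 1.70 to 1.94 in the Control libraries.

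The promoter windows of both receptor genes are shown because the genes moved apart under each single treatment. Each holds the gamma-activated site letters TTCNNNGAA, which 7.02% of the 32851 windows hold; that of Tnfrsf1b also holds the interferon-stimulated response element, which 2.977% hold, on the minus strand of the window. The capitals mark these matches. In the deposited coordinates Tnfrsf1a spans chr6:125349362-125362484, so its RefSeq window lies inside the gene, downstream of that start. The Tnfrsf1b window lies just upstream of its gene, which spans chr4:145213463-145246870. The windows lie at chr4:145246871-145247120 on the minus strand and at chr6:125349473-125349722 on the plus strand (RefSeq, GRCm38.p6):
Tnfrsf1b: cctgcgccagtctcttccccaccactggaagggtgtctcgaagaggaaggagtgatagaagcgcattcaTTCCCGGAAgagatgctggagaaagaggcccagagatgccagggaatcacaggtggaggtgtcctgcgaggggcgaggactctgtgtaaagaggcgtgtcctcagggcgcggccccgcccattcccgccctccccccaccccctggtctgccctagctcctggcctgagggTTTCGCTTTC
Tnfrsf1a: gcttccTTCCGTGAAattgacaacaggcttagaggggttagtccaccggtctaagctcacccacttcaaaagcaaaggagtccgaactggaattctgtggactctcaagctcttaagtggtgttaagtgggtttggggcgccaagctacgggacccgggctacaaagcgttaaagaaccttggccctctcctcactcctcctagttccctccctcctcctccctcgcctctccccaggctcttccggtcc
Of the 7 member windows, 3 hold the gamma-activated site letters (these and Fas, at -93 to -85) and 2 the response element (Tnfrsf1b and Tnfrsf14). In Tnfrsf1b the matches lie at -181 to -173 and at -10 to -1 from the RefSeq start, and in Tnfrsf1a at -244 to -236 from its RefSeq start.

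Cd40, the receptor through which T cells activate antigen-presenting cells, had the largest fold change of the members in the combined group. It was at 41.1, 40.5 and 34.3 FPKM in the combined libraries, at 11.3 and 11.3 in the Pam3CSK4 libraries, at 7.43, 6.90 and 9.44 in the IFN-gamma libraries, and at 0.601, 0.423 and 0.687 in the Control libraries. The 4 groups did not overlap. Against Control, Cd40 rose 72.5-fold in the combined group (log2 change 6.18 ± 0.20, edgeR adjusted p = 6.09e-08). The log2 change was 4.29 ± 0.20 with Pam3CSK4 (edgeR adjusted p = 8.54e-07) and 3.90 ± 0.19 with IFN-gamma (edgeR adjusted p = 6.04e-07). By mean level Cd40 ranked 1036 of 10938 genes in the combined group and 10605 in the Control group.

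Fas, a death-domain receptor that can trigger apoptosis, followed the same order of groups. It was at 17.3, 16.7 and 18.3 FPKM in the combined libraries, at 11.1 and 11.9 in the Pam3CSK4 libraries, at 5.79, 3.71 and 5.22 in the IFN-gamma libraries, and at 1.07, 1.47 and 2.36 in the Control libraries. Again the groups did not overlap. Fas rose against Control by 3.52 ± 0.25 in the combined group (log2 scale, edgeR adjusted p = 3.77e-06), by 2.81 ± 0.25 with Pam3CSK4 (edgeR adjusted p = 3.28e-05) and by 1.70 ± 0.23 with IFN-gamma (edgeR adjusted p = 0.000441). The gene overlaps 1 short annotated RNA, so a few reads may be shared.

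Tnfrsf14 encodes HVEM, a receptor for LIGHT (the product of Tnfsf14) and a partner of the inhibitory receptor BTLA. It was at 13.1, 12.2 and 11.1 FPKM in the combined libraries, at 3.90 and 4.07 in the Pam3CSK4 libraries, at 11.6, 15.7 and 11.9 in the IFN-gamma libraries, and at 3.23, 2.45 and 2.75 in the Control libraries. Levels were high in both groups given IFN-gamma, which overlapped, and low in the other groups. It rose against Control in the combined group (log2 change 2.20 ± 0.17, edgeR adjusted p = 6.55e-06) and in the IFN-gamma group (2.31 ± 0.17, edgeR adjusted p = 8.34e-06). With Pam3CSK4 alone the log2 change was 0.49 ± 0.18 and missed the threshold (edgeR adjusted p = 0.0549). It passed without Control replicate 1 (edgeR adjusted p = 0.0233) or IFN-gamma replicate 2 (edgeR adjusted p = 0.0396), with RLE size factors in place of TMM scaling (edgeR adjusted p = 0.0432), and by limma on log2(FPKM + 1) (adjusted p = 0.0394). The promoter window of Tnfrsf14 is that of RefSeq (GRCm38.p6, chr4:154928078-154928327, minus strand). In the deposited coordinates the gene spans chr4:154922210-154928563, so the window lies inside it, downstream of that start. By the RefSeq start, the window holds the interferon-stimulated response element on its minus strand at -64 to -55, in capitals. It is shown because only the groups given IFN-gamma were called for this gene:
Tnfrsf14: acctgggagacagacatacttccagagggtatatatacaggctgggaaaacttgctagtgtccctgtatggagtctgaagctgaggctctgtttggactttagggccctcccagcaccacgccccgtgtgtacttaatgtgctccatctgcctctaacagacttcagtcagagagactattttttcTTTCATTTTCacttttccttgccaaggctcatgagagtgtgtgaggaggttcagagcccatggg

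Tnfrsf11a encodes RANK, the receptor that drives osteoclast formation in bone, and was the one member not called against Control in any group. Its mean was 8.06 ± 1.36 FPKM in the combined group, 11.0 ± 1.94 in the Pam3CSK4 group, 7.09 ± 0.601 in the IFN-gamma group and 9.74 ± 2.39 in the Control group (SD; n = 3, 2, 3 and 3). All pairs of groups compared overlapped. The log2 changes against Control were -0.20 ± 0.22 in the combined group (edgeR adjusted p = 0.478), 0.14 ± 0.25 with Pam3CSK4 (edgeR adjusted p = 0.682) and -0.38 ± 0.22 with IFN-gamma (edgeR adjusted p = 0.199). The lowest Control library, at 6.99 FPKM against 11.2 and 11.0 in the others, was replicate 3, the one with most mural and fibroblast transcripts. Without that library the changes were -0.43 in the combined group (edgeR adjusted p = 0.0290), -0.09 with Pam3CSK4 and -0.60 with IFN-gamma (edgeR adjusted p = 0.00698). Without all 3 stromal-marked libraries they were -0.57 in the combined group (edgeR adjusted p = 0.00488), -0.09 with Pam3CSK4 and -0.65 with IFN-gamma (edgeR adjusted p = 0.00302). The part of those transcripts in this result was not tested.

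**Figure D3:**
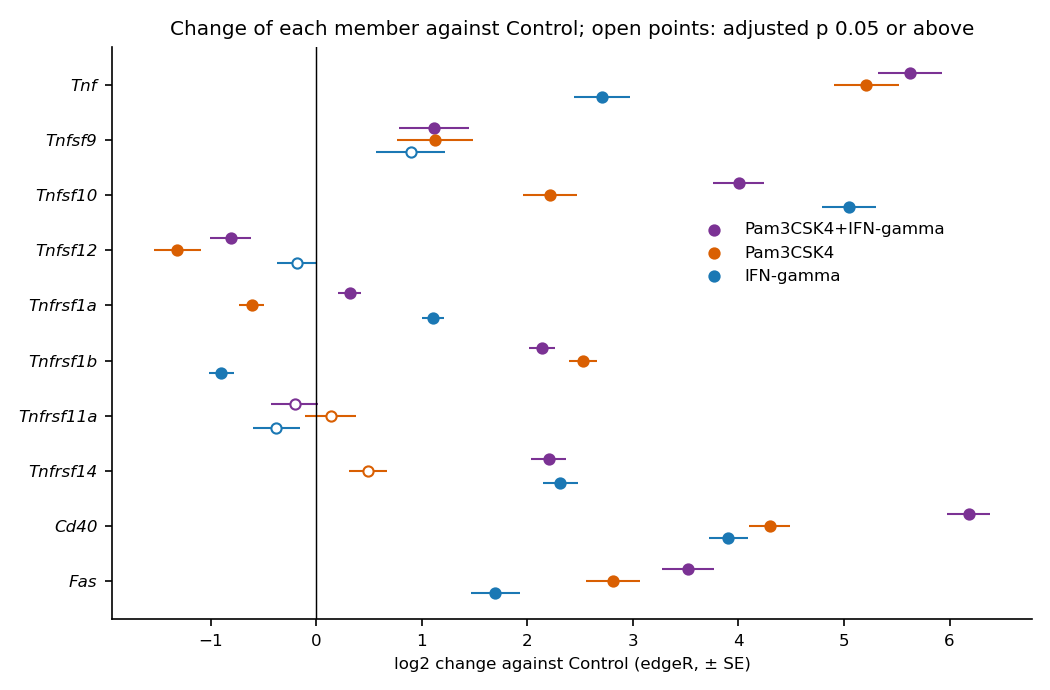
Log2 change against Control (points) with its SE (bars) for the 10 members, with the combined group, Pam3CSK4 and IFN-gamma side by side; filled points passed the edgeR test. Cd40 in the combined group is the highest at 6.18, and Tnfsf12 with Pam3CSK4 is the lowest at -1.31.

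The combined group was also set against each single treatment. Against IFN-gamma alone, which asks what the earlier Pam3CSK4 changed, 4 members were higher and 3 lower, where 34.2% of genes were called, 17% higher and 17.2% lower. The members' median log2 change was 0.20, beside -0.02 over all genes. Tnfrsf1b rose 8.20-fold (log2 change 3.04 ± 0.13, edgeR adjusted p = 4.00e-07), Tnf by 2.92 ± 0.27 (edgeR adjusted p = 4.43e-05), Cd40 by 2.27 ± 0.17 (edgeR adjusted p = 1.16e-05) and Fas by 1.82 ± 0.23 (edgeR adjusted p = 0.000271). Tnfrsf1a fell by 0.79 on the log2 scale (SE 0.11, edgeR adjusted p = 0.000432), as did Tnfsf10 and Tnfsf12 with the values given above. Tnfsf9, Tnfrsf11a and Tnfrsf14 were not called, at 0.22 ± 0.32, 0.18 ± 0.22 and -0.11 ± 0.16.

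Against Pam3CSK4 alone, edgeR called 4 members higher in the combined group and none lower, where 9.1% of genes were called, 6.06% higher and 3.04% lower. The median log2 change was 0.61, beside -0.00 over all genes. Cd40 rose by 1.89 ± 0.19 (edgeR adjusted p = 0.000288), Tnfsf10 by 1.78 ± 0.25 (edgeR adjusted p = 0.00194), Tnfrsf14 by 1.71 ± 0.19 (edgeR adjusted p = 0.000464) and Tnfrsf1a by 0.93 ± 0.12 (edgeR adjusted p = 0.00131). Tnf was not called at 0.41 ± 0.28 (edgeR adjusted p = 0.449), although its 3 combined libraries lay above both Pam3CSK4 libraries. Tnfrsf1b was not called at -0.39 ± 0.13 (edgeR adjusted p = 0.101), nor was Fas at 0.71 ± 0.25 (edgeR adjusted p = 0.119). Without Control replicate 3, Tnfrsf1b and Fas passed (edgeR adjusted p = 0.00875 and 0.0267). Without all 3 stromal-marked libraries 7 members were called, the added ones being Tnfrsf1b (-0.34, edgeR adjusted p = 0.0235), Fas (0.68, edgeR adjusted p = 0.0310) and Tnfrsf11a (-0.48, edgeR adjusted p = 0.0276). Tnfrsf1b was also called lower by DESeq2 (-0.40, adjusted p = 0.0138) and by limma on log2(FPKM + 1) (-0.50, adjusted p = 0.00633), and Fas higher by DESeq2 (0.70, adjusted p = 0.0255). With only the groups compared in the edgeR fit, Tnf, Tnfrsf1b and Fas passed (edgeR adjusted p = 0.00560, 0.0109 and 0.00208). Calls over all 10938 genes rose in these settings too. They went from 995 to 2005 without Control replicate 3 and to 2122 without all 3 stromal-marked libraries. DESeq2 gave 1536, and edgeR with only the groups compared gave 2314.

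The interaction asks whether the log2 effect of Pam3CSK4 was the same with and without IFN-gamma. By edgeR it was below 0 past the threshold for 3 members and above 0 for none, where 16% of genes were called, 8.01% above 0 and 8.01% below it. The 3 were Tnfsf10 (-3.27 ± 0.33, edgeR adjusted p = 0.000476), Tnf (-2.29 ± 0.37, edgeR adjusted p = 0.00447) and Cd40 (-2.02 ± 0.25, edgeR adjusted p = 0.00119). For these genes the log2 change in the combined group was smaller than the sum of the single changes. For Cd40 it was 6.18, beside a sum of 8.20. Over all 10938 genes, interaction calls rose from 1752 to 3100 without the 3 stromal-marked libraries and to 3232 without Control replicate 3 alone. In each of these 2 settings 6 members passed. The added ones in both were Fas (-1.18 without the 3 libraries), Tnfrsf1b (0.65) and Tnfsf12 (0.86). Fas also passed without IFN-gamma replicate 2 (-1.15, edgeR adjusted p = 0.0446). DESeq2 called 5 members, adding Fas below 0 (-0.995, adjusted p = 0.0212) and Tnfrsf1b above 0 (0.49, adjusted p = 0.0223), and limma on log2(FPKM + 1) also called Tnfrsf1b above 0 (0.48, adjusted p = 0.0234).

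On the linear scale, the combined level was set against the Control mean plus both single-treatment increments. For Cd40 the combined libraries averaged 38.6 ± 3.80 FPKM, against a sum of 18.6. For Tnf they averaged 318 ± 10.5 FPKM, against 292, and for Fas 17.5 ± 0.806, against 14.8. All 3 combined libraries lay above the sum for each of these genes. Tnfsf10 averaged 2.70 ± 0.274 FPKM, against a sum of 6.22, and Tnfrsf1b 333 ± 20.3, against 429.7, with all 3 combined libraries below the sum. Tnfrsf1a, Tnfrsf14 and Tnfsf9 also lay below their sums of 73.9, 14.2 and 11.0 FPKM in all 3 libraries. Tnfsf12, which fell, lay above its sum of 3.32 FPKM in 3 of 3 libraries, and Tnfrsf11a lay above its sum of 8.30 in 1 of 3. These sums were not tested.

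**Figure D4:**
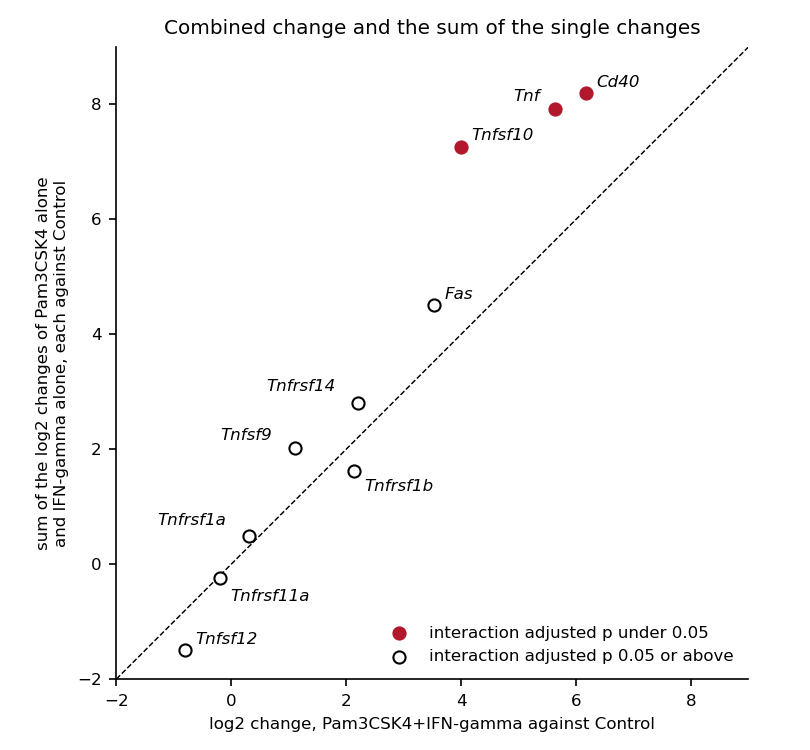
Log2 change of each member in the combined group against Control (x axis) and the sum of the log2 changes of Pam3CSK4 alone and IFN-gamma alone against Control (y axis), with a dashed line of equality; filled points passed the edgeR interaction test. Cd40, at 6.18 and 8.20, Tnf, at 5.63 and 7.92, and Tnfsf10, at 4.00 and 7.27, lie above the line.

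The binding partners of several members were looked up as well. They were picked from the superfamily lists after their values were seen. Cd40lg and Fasl, which encode the ligands of CD40 and Fas, had 0 counts in all 11 libraries, which allows at most 0.1996 CPM (counts scaled to the library total) in the shallowest library (3 counts, counting error only). Tnfsf11, the RANK ligand gene, was counted only in Control replicate 3, with 127 reads. Tnfrsf9, the receptor gene for 4-1BBL, was at 1.58 FPKM in that library and at most 0.156 elsewhere. Tnfrsf10b, the TRAIL receptor gene, was at 1.00 FPKM in combined replicate 3, 2.24 in IFN-gamma replicate 1 and 5.80 in Control replicate 3, and no other library exceeded 0.658. Tnfrsf12a, the TWEAK receptor gene, was at 21.1 FPKM in combined replicate 3, 28.9 in IFN-gamma replicate 1 and 87.4 in Control replicate 3. In the other libraries it was at 14.98 and 15.9 in the combined group, 23.8 and 29.5 in the Pam3CSK4 group, 9.56 and 11.7 in the IFN-gamma group and 9.26 and 8.47 in the Control group. The library with the highest mural and fibroblast markers was thus also the highest for these 4 genes, and the part of those cells in their levels was not tested.

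Other superfamily ligands were measured in a list of 14, of which 6 passed the filter. Against Control, 1 rose and 2 fell in the combined group and likewise with Pam3CSK4, and 2 rose and 1 fell with IFN-gamma. Of all tested genes, 47.6%, 41.4% and 41.6% were called in these comparisons, so the ligands' shares were near the background. Tnfsf13b encodes BAFF, a survival factor for B cells, and averaged 62.8 ± 1.63 FPKM in the combined group, 70.7 ± 3.26 in the Pam3CSK4 group, 64.0 ± 2.59 in the IFN-gamma group and 10.8 ± 1.40 in the Control group. It rose against Control by 2.63 ± 0.12 in the combined group, 2.69 ± 0.12 with Pam3CSK4 and 2.66 ± 0.12 with IFN-gamma (log2 scale, edgeR adjusted p = 2.94e-07, 8.54e-07 and 3.72e-07). Its interaction was -2.73 ± 0.16 (edgeR adjusted p = 3.42e-05), so the changes were not additive on the log2 scale. Tnfsf13, which encodes the related ligand APRIL, averaged 0.180 FPKM in the combined group, 0.238 in the Pam3CSK4 group, 0.674 in the IFN-gamma group and 2.28 in the Control group. It fell against Control, with log2 changes of -3.56 ± 0.32 in the combined group, -3.27 ± 0.37 with Pam3CSK4 and -1.66 ± 0.29 with IFN-gamma (edgeR adjusted p = 1.98e-05, 0.000132 and 0.00172). In the combined group against IFN-gamma alone its log2 change was -1.89 ± 0.31 (edgeR adjusted p = 0.00140). It shares the readthrough gene with Tnfsf12, so its counts are uncertain too. Tnfsf13 reached 1 FPKM only in the Control libraries, at 1.82 to 2.58, and was at most 0.771 elsewhere. It passed the filter only through that group, so its calls against Control are not independent of the filter.

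Tnfsf8, which encodes the CD30 ligand, averaged 0.285 ± 0.0227 FPKM in the combined group, 0.860 ± 0.164 in the Pam3CSK4 group, 2.76 ± 0.414 in the IFN-gamma group and 2.52 ± 1.21 in the Control group. It fell against Control by 3.08 in the combined group (SE 0.39, edgeR adjusted p = 0.000161) and against IFN-gamma by 3.28 (SE 0.39, edgeR adjusted p = 0.000210). Its change of -1.597 with Pam3CSK4 (edgeR adjusted p = 0.0131) was lost without Pam3CSK4 replicate 2 (edgeR adjusted p = 0.0992). Tnfsf14, the gene of the HVEM ligand LIGHT, averaged 0.207 FPKM in the combined group, 0.237 in the Pam3CSK4 group, 1.27 in the IFN-gamma group and 0.279 in the Control group. It rose with IFN-gamma by 2.27 ± 0.55 against Control (edgeR adjusted p = 0.00914) and fell in the combined group against IFN-gamma alone (log2 change -2.60 ± 0.56, edgeR adjusted p = 0.00606). This rests on at most 51 reads per library. Tnfsf14 reached 1 FPKM only in the IFN-gamma libraries, at 1.03 to 1.65, and was at most 0.415 elsewhere. It thus passed the filter only through the group where it was high. Its calls against that group are not independent of the filter.

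Of 22 other superfamily receptors, 8 passed the filter. Against Control, 1 rose and 2 fell in the combined group, none rose and 2 fell with Pam3CSK4, and 2 rose and 2 fell with IFN-gamma, where 47.6%, 41.4% and 41.6% of all tested genes were called. These counts moved with single libraries. Without Control replicate 3, 5 receptors were called in the combined group and 4 with Pam3CSK4. Without Pam3CSK4 replicate 2, 1 was called with Pam3CSK4, and without IFN-gamma replicate 3, 2 were called with IFN-gamma. Without the 3 stromal-marked libraries, 6 were called in the combined group and 4 with Pam3CSK4. Ltbr, the lymphotoxin-beta receptor gene, averaged 37.7 FPKM in the combined group, 33.3 in the Pam3CSK4 group, 47.5 in the IFN-gamma group and 31.7 in the Control group. It rose by 0.34 ± 0.09 in the combined group and by 0.68 ± 0.09 with IFN-gamma (log2 scale, edgeR adjusted p = 0.0117 and 0.000329). Against IFN-gamma alone the combined group fell by 0.34 (SE 0.09, edgeR adjusted p = 0.0155), a call lost without IFN-gamma replicate 3 or combined replicates 1 or 2 (edgeR adjusted p up to 0.0570). Tnfrsf13b encodes TACI, a receptor for BAFF and APRIL. It fell by 0.86 in the combined group (SE 0.27, edgeR adjusted p = 0.0242) and by 1.02 with IFN-gamma (SE 0.27, edgeR adjusted p = 0.0135), with means of 1.34 FPKM in the combined group and 1.196 in the IFN-gamma group against 2.58 in the Control group. The call in the combined group was lost without Control replicate 1 or combined replicates 1 or 3, and that with IFN-gamma without IFN-gamma replicate 3, with edgeR adjusted p up to 0.0901 and 0.0508.

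Tnfrsf23, which encodes a decoy receptor for TRAIL in mice, fell in all 3, with log2 changes of -0.80 ± 0.18 in the combined group, -0.98 ± 0.21 with Pam3CSK4 and -1.04 ± 0.18 with IFN-gamma (edgeR adjusted p = 0.00578, 0.00505 and 0.00186). Tnfrsf21, which encodes death receptor 6, fell by 0.78 with Pam3CSK4 (SE 0.18, edgeR adjusted p = 0.00741), to 33.8 ± 1.501 FPKM against 56.8 ± 10.1 in the Control group. That call was lost without Pam3CSK4 replicate 2 (edgeR adjusted p = 0.0584). Tnfrsf26 rose by 0.72 ± 0.26 with IFN-gamma (edgeR adjusted p = 0.0493), but the call was lost without any of 9 single libraries, with edgeR adjusted p up to 0.176. Without the 3 stromal-marked libraries its log2 change was 0.29 (edgeR adjusted p = 0.295). Between the combined group and Pam3CSK4 alone, no gene of either superfamily list was called in the edgeR fit of all 11 libraries with TMM scaling. DESeq2 called 1 ligand lower, 2 receptors higher and 1 receptor lower, where 1536 of all tested genes were called. Without the 3 stromal-marked libraries edgeR called 1 ligand lower, 1 receptor higher and 2 receptors lower, where 2122 of all tested genes were called.

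Adaptors and downstream signalling genes formed a list of 26, of which 25 passed the filter. Against Control, 15 rose and 2 fell in the combined group, 11 rose and 1 fell with Pam3CSK4, and 7 rose and 3 fell with IFN-gamma, where 47.6%, 41.4% and 41.6% of all tested genes were called. Without Pam3CSK4 replicate 2, the count with Pam3CSK4 was 7 in place of 12. Their median log2 changes were 0.46, 0.29 and 0.22. Traf1 encodes an adaptor of TNF receptor 2 and CD40 signalling. It averaged 11.0 ± 1.39 FPKM in the combined group, 12.0 ± 0.745 in the Pam3CSK4 group, 0.0867 ± 0.0394 in the IFN-gamma group and 0.0653 ± 0.0888 in the Control group. Its log2 change against Control was 7.46 ± 0.73 in the combined group and 7.48 ± 0.75 with Pam3CSK4 (edgeR adjusted p = 3.36e-05 and 6.06e-05). The Control libraries held 1, 5 and 40 Traf1 reads, the 40 in replicate 3, and without that library the changes were 9.55 and 9.57. Against IFN-gamma alone, Traf1 was higher in the combined group by 6.99 ± 0.71 (edgeR adjusted p = 8.31e-05).

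Birc3, which encodes the ubiquitin ligase cIAP2, averaged 18.4 ± 0.718 FPKM in the combined group, 17.1 ± 0.961 in the Pam3CSK4 group, 9.67 ± 0.303 in the IFN-gamma group and 4.14 ± 0.351 in the Control group. Its log2 change against Control was 2.25 ± 0.09, 2.03 ± 0.10 and 1.33 ± 0.09 in that order of treatments (edgeR adjusted p = 1.56e-07, 9.64e-07 and 4.62e-06). Cflar, whose product cFLIP restrains caspase-8, rose by 2.15 ± 0.26 in the combined group and 1.74 ± 0.28 with Pam3CSK4 (edgeR adjusted p = 0.000139 and 0.00101). Tnip1, which encodes a partner of the NF-kappaB inhibitor A20, rose by 1.80 ± 0.16 with Pam3CSK4 (edgeR adjusted p = 3.03e-05). Against IFN-gamma alone, the combined group was higher in Cflar by 1.81 ± 0.26, Tnip1 by 1.29 ± 0.15 and Birc3 by 0.92 ± 0.09 (edgeR adjusted p = 0.000656, 0.000168 and 5.24e-05).

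TNF is released from the membrane by the protease ADAM17, which the iRhom proteins encoded by Rhbdf1 and Rhbdf2 carry to the cell surface. Rhbdf2 averaged 30.1 FPKM in the combined group, 21.5 in the Pam3CSK4 group, 30.8 in the IFN-gamma group and 13.7 in the Control group, and rose with IFN-gamma by 1.26 ± 0.14 (log2 scale, edgeR adjusted p = 0.000117). Rhbdf1 fell by 1.87 in the combined group (SE 0.45, edgeR adjusted p = 0.00706) and by 2.71 with IFN-gamma (SE 0.47, edgeR adjusted p = 0.00156). Adam17, named after its values were seen, was at 31.1 to 34.3 FPKM in the combined group, at 34.5 and 34.9 in the Pam3CSK4 group, at 19.8 to 20.8 in the IFN-gamma group and at 11.3 to 22.3 in the Control group. Sharpin, a subunit of the linear ubiquitin ligase, rose by 1.05 ± 0.12 with IFN-gamma (edgeR adjusted p = 0.000153). Rhbdf2 and Cyld, which encodes a deubiquitinase of TNF receptor signalling, were the list's 2 calls between the combined group and Pam3CSK4 alone, at 0.59 ± 0.16 and 0.47 ± 0.11 (edgeR adjusted p = 0.0452 and 0.0308). Both calls were lost without single libraries, 9 of 11 for Rhbdf2 and 5 of 11 for Cyld, with edgeR adjusted p up to 0.242 and 0.220, while 7 genes of the list were called without the 3 stromal-marked libraries.

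**Figure D5:**
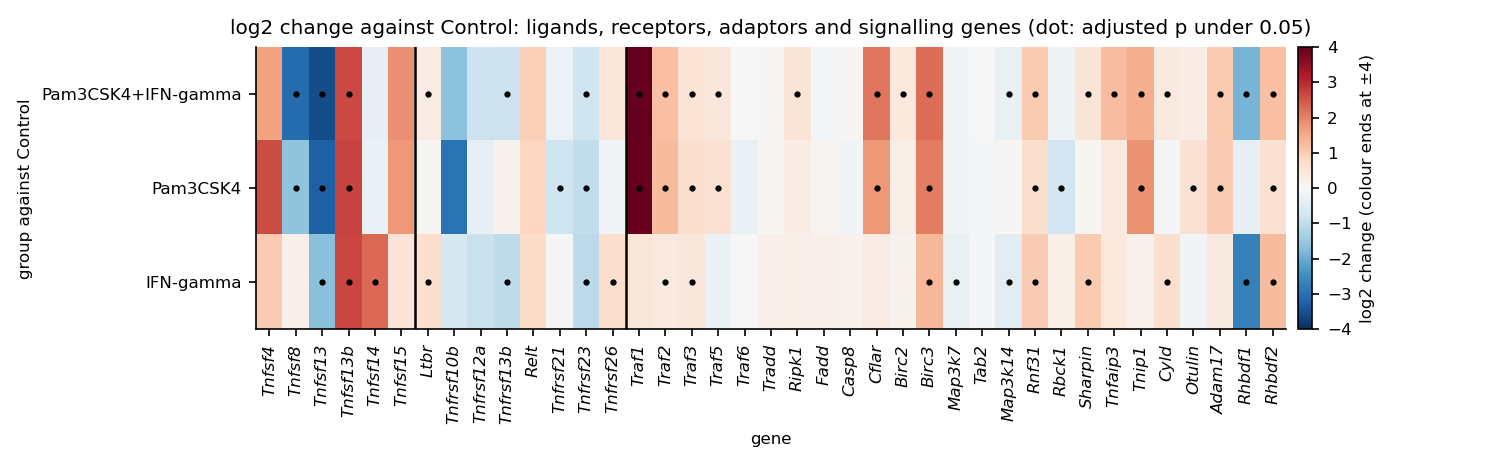
Log2 change against Control (colour, which ends at 4 in either direction) of the tested genes of the 3 other lists, in columns split by lines into ligands, receptors, and adaptors and signalling genes, with the combined group, Pam3CSK4 and IFN-gamma as rows; a dot marks an edgeR adjusted p under 0.05. Traf1 lies beyond the colour range at 7.46 in the combined group and 7.48 with Pam3CSK4, and Tnfsf13b is at 2.63, 2.69 and 2.66 in the 3 rows.

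Over the 11 libraries, the members' log2(FPKM + 1) levels fell into sets that varied together. The values are descriptions, since the libraries share 4 treatments. The closest pairs were Tnf and Fas (Pearson r = 0.97), Cd40 and Fas (0.96), Tnfsf10 and Tnfrsf14 (0.95), and Tnf and Cd40 (0.94). Tnfrsf1a and Tnfrsf1b had r = -0.75, and Tnf and Tnfsf12 had r = -0.87. Among 6351 other genes with a mean of at least 5 FPKM in some group, the patterns nearest to each member were as follows. Tnf was nearest to Slc31a2 (r = 0.997) and M6pr (0.995), and Tnfrsf1b to Siglece (0.997) and Rhoq (0.996). Cd40 was nearest to Tnfaip2 (0.992) and Xkr8 (0.990), and Fas to Sod2 (0.990) and Hat1 (0.987). For Tnfsf10 the nearest genes were Samhd1 (0.997) and Ifi205 (0.989), and for Tnfrsf14 they were Gbp7 and Gbp5 (0.990 each). Tnfrsf1a was nearest to AB124611 (0.995) and Tbkbp1 (0.986), and Tnfsf12 to Naa20 (0.972) and Tspan13 (0.971). The nearest genes were Cpsf3l (0.943) and Map7d1 (0.931) for Tnfsf9, and mt-Nd4l (0.968) and Tmem106c (0.919) for Tnfrsf11a.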

How the data were processed

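Total RNA of cultured microglia was sequenced in 11 libraries. The deposited table holds raw read counts and FPKM values per gene and library, per the file headers, made by the authors. The submitters' processing notes name mm10, Cuffdiff, Cufflinks 2.1.1 and TopHat2 2.1.0 without a role. How reads were counted, with which annotation and strand setting, is not given in the sources used here. The deposited FPKM equalled the count over the library total and 1 constant per gene, to a relative deviation of 2.82e-06. No per-sample column was left out.

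The counts entered edgeR 4.0.16 (R 4.3.3) and its quasi-likelihood test (TMM scaling, all 11 libraries in 1 fit of 4 group means, which share the spread). The filter on low values asked for 1 FPKM or more in 2 or more libraries and left 10938 genes. P-values were two-sided, adjusted by Benjamini-Hochberg and called below 0.05. Each SE is the size of the log2 change over the root of its F statistic. DESeq2 1.42.0 and limma 3.58.1 on log2(FPKM + 1) were alternatives, beside other scalings, filters and left-out libraries. The fit was also run on simulated counts, with genes changed only in the Pam3CSK4 group. Those counts held neither the stromal-marked pattern nor changes in the other groups, so nothing is drawn from them here. The main fit held no pairing of libraries. Of 15 same-numbered pairs from different groups, 6 had correlated deviations above 0.1 (range -0.72 to 0.71). These values cannot decide whether replicate numbers pair the libraries. Stromal-marked libraries of unlike number also correlated (Control replicate 3 and IFN-gamma replicate 1, r = 0.81). In the Pam3CSK4 group, the deviations of the 2 libraries mirror each other by construction.

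The members, gene lists and tests were chosen with earlier results of these data known. All members are named. Other named genes are up to 4 per list and comparison with the largest change past the threshold, and the 2 genes most correlated with each member. Adam17 and the binding partners of members (Cd40lg, Fasl, Tnfsf11, Tnfrsf9, Tnfrsf10b, Tnfrsf12a) were added after their values were seen. Promoter windows of 250 bases came from RefSeq (GRCm38.p6). In the deposited gene coordinates, those of Tnfrsf1a and Tnfrsf14 lie inside the gene, and those of Tnfsf10 and Tnfrsf11a reach into it.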

Additional observations from a re-analysis of the deposited data

Results flagged for a closer look

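In 8 of the 49 tested genes of the 4 lists (16.3%, where 16% of all tested genes were called) the log2 effect of Pam3CSK4 differed with and without IFN-gamma by the interaction test. Among the members the difference (effect with IFN-gamma minus effect without it) was -3.27 for Tnfsf10, -2.29 for Tnf and -2.02 for Cd40. Among the other superfamily genes it was -2.73 for Tnfsf13b and 1.22 for Tnfrsf23, and among the signalling genes -1.11 for Birc3, -0.61 for Sharpin and -0.54 for Traf3. The differences for Tnfsf10, Tnf, Cd40, Tnfsf13b and Birc3 kept their call in all 20 alternatives. Leaving out single libraries ended the call of Tnfrsf23 in 3 of 11 cases, of Traf3 in 8 and of Sharpin in 9, with edgeR adjusted p up to 0.0762, 0.131 and 0.193. With the replicate number as a block these 3 calls were also lost (edgeR adjusted p = 0.0521, 0.0848 and 0.0970). No group had the 4 libraries needed to look for a single deviating sample.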

How the results depend on the processing

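Of the 60 member results (10 genes in 6 comparisons), 38 were called, and 33 of these kept call and direction in all 20 alternatives; of the 22 not called, 6 did. With single libraries left out, the members called ranged from 7 to 9 in the combined group against Control (9 with all libraries), 7 to 9 in Pam3CSK4 against Control (8), 7 to 9 in IFN-gamma against Control (7), 6 to 7 in the combined group against IFN-gamma (7), 4 to 6 against Pam3CSK4 (4) and 3 to 6 in the interaction (3). The interaction gave 5 members with DESeq2 and 6 without the 3 stromal-marked libraries. The combined group against Pam3CSK4 gave 7 without these libraries and 7 when only the groups compared were fitted. For all genes, interaction calls (1752) were 1080 without the filter on low values and 3100 without the 3 libraries, and ranged from 664 to 3232 with single libraries left out. Calls in Pam3CSK4 against Control (4532) were 2642 with only the groups compared, and 2873 to 5620 with single libraries left out. Calls in the combined group against Pam3CSK4 (995) were 1536 with DESeq2, 2122 without the 3 libraries, 2314 with only the groups compared and 405 to 2005 with single libraries left out.

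With the replicate number as a block, 8, 8 and 7 members were called against Control in the combined, Pam3CSK4 and IFN-gamma groups, 7 and 4 in the combined group against IFN-gamma and against Pam3CSK4, and 3 in the interaction.

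Reversals touched only results that were not called. The Tnfrsf11a interaction (0.04) was -0.0049 without the filter, -0.016 with limma at both pseudocounts, and -0.14 to 0.27 with single libraries left out. Tnfrsf11a in Pam3CSK4 against Control (0.14) was -0.0890 without the 3 libraries, and -0.0888 to 0.32 with single libraries left out. With single libraries left out, Tnfrsf14 in the combined group against IFN-gamma (-0.11) ranged from -0.21 to 0.0395, Tnfsf12 in IFN-gamma against Control (-0.18) from -0.34 to 0.0167, and Tnfsf9 in the combined group against Pam3CSK4 (-0.01) from -0.19 to 0.20. The causes were not tested. With 2 Pam3CSK4 libraries, leaving 1 out assumes that the other varies like the remaining groups. Low counts limit Tnfsf10, Tnfsf13 and Tnfsf14.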
